A study of Mus musculus with 8 samples.

Results

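Eif2ak1, Eif2ak2, Eif2ak3 and Eif2ak4, the mouse genes for the eIF2alpha kinases, and Ppp1r15a and Ppp1r15b, the genes for the phosphatase subunits that act against them, were followed through RNA-seq and ribosome footprint counts. The 6 genes were listed by name for their place in the pathway, with earlier results of these data known. They are 6 of 21421 protein-coding genes among the 55536 genes listed. All 6 passed the minimum for a measured gene, a mean count of at least 30 over the 4 libraries of an assay. The samples were KRPC-A cells, a line from tumours of genetically engineered mice on the C57BL/6 background, labelled as pancreatic tumour cells that resemble ductal adenocarcinoma. Cells with Gcn2 intact (wild-type, WT) or knocked out (KO) were held for 1 h in medium with all amino acids (replete) or in medium without leucine. Each of the 4 combinations gave 1 RNA-seq and 1 footprint library, so there were 8 groups of 1 library and no replicates. The sources used here do not say by what method Gcn2 was knocked out, which of its exons are missing, or whether the KO line is 1 clone.

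The integrated stress response turns on the phosphorylation of the alpha subunit of initiation factor eIF2, which lowers general initiation while favouring some mRNAs with upstream open reading frames, among them Atf4. Each kinase answers to its own signal: GCN2 (Eif2ak4) to uncharged transfer RNA and stalled ribosomes, PERK (Eif2ak3) to unfolded protein in the endoplasmic reticulum, PKR (Eif2ak2) to double-stranded RNA, and HRI (Eif2ak1) to lack of heme and to mitochondrial stress. The phosphate is removed by protein phosphatase 1, which is brought to eIF2alpha by GADD34 (Ppp1r15a), the subunit made under stress, or by CReP (Ppp1r15b), the subunit made at all times.

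A ribosome footprint is the piece of mRNA that a ribosome shields from nuclease, so footprint counts follow the number of ribosomes on an mRNA. RNA-seq libraries held 49136610 to 60680169 counted reads and footprint libraries 2671491 to 9993211, fewest in WT cells without leucine. Levels are given as CPM, the gene's share of the protein-coding reads times 1000000, after scaling. They are relative within a library, so fewer cells of a type and less RNA per cell cannot be told apart, and a general change in translation does not show. Every range in parentheses is a 95% interval for counting error only, because each group is 1 library and PCR copies cannot be told from separate molecules without molecular identifiers. Ratios therefore compare libraries, and no p-value was computed. Of the 8 markers of pancreatic duct and epithelium, 6 or 7 had at least 3 reads in each RNA-seq library, but Epcam, an epithelial adhesion protein, had 0 reads in all 4. Several others were low in RNA: Krt7 at 1.2 to 3.9 CPM, Cdh1 at 1.3 to 3.6, Krt19 at 0.23 to 0.60, and Cldn4 with 0 to 11 reads. Summed over the list, these markers stood at 234 CPM in WT and 473 in KO replete cells, and at 322 in WT and 1089 in KO leucine-free cells, mostly from Sox9, Krt18 and Krt8, so they moved with both genotype and medium. Acinar markers had 0 reads in 3 RNA-seq libraries and 4 in KO leucine-free cells. The 6 mesenchymal markers summed to 1144 to 1603 RNA CPM, nearly all from the filament gene Vim. Pdgfrb had 1754 to 2028 RNA reads, while Col1a2 had 17 to 69, Dcn 0 to 2 and Pdgfra 0 to 17. Col1a1, a collagen chain, also moved with genotype, at 15.0 and 17.1 RNA CPM in WT and 4.59 and 6.00 in KO cells with and without leucine.

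In the GRCm38 gene models that the counts were made on, the kinase genes are long and many-exoned. Eif2ak1 (ENSMUSG00000029613) is at chr5:143817788-143904251 on the plus strand with 15 merged exons. Eif2ak2 (ENSMUSG00000024079) is at chr17:78852564-78882573 on the minus strand with 16, Eif2ak3 (ENSMUSG00000031668) at chr6:70844515-70905245 on the plus strand with 19, and Eif2ak4 (ENSMUSG00000005102) at chr2:118388618-118475234 on the plus strand with 41. The phosphatase subunit genes are compact: Ppp1r15a (ENSMUSG00000040435) at chr7:45522916-45526268 on the minus strand and Ppp1r15b (ENSMUSG00000046062) at chr1:133131143-133139783 on the plus strand have 2 merged exons each. Counting did not use strand, so reads where exons overlap an opposite-strand gene cannot be told apart. Such overlap covers 11.6% of the exonic length of Eif2ak1 (with Aimp2 and Ankrd61), 11.4% of Ppp1r15b (with Gm26616), 8.05% of Eif2ak3 (with Gm43292), 4.32% of Eif2ak2, 0.409% of Ppp1r15a and 0 of Eif2ak4.

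Ppp1r15a was the member with the largest RNA response to leucine removal in both genotypes, so the 250 bases before its start are shown, read 5′ to 3′ on the minus strand at chr7:45526269-45526518 from RefSeq's annotation of GRCm38.p6. Capitals mark a full match to TGACGTCA, the element bound by CREB and ATF family factors.

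Ppp1r15a: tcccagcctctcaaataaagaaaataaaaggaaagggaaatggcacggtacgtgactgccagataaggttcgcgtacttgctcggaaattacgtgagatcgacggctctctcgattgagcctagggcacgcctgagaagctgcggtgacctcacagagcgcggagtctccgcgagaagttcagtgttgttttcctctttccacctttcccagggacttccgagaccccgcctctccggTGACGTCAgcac

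The first base of the match lies 12 nt before the start. RefSeq windows of 300 bases (250 before the start and 50 after) were at hand for 5 members, Eif2ak4 with 2 starts, so 6 windows were searched on both strands. TGACGTCA was found in the Ppp1r15a window alone among them, and in 1.79% of all 32851 windows. The C/EBP-ATF element TGATGNAA was in none of the 6 windows and in 3.97% of all. The interferon-stimulated response element was in the windows of Eif2ak2 and Ppp1r15a and in 3.44% of all, and the endoplasmic reticulum stress element was in none of the 6 and in 0.119% of all. A match describes the letters and does not show that a factor binds there. Ppp1r15b had no window.

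The knockout target comes first, since it checks the labels. Eif2ak4 had 3601 (replete) and 2838 (leucine-free) RNA reads in WT cells, against 522 and 519 in KO cells, or 85.7, 69.7, 13.6 and 16.7 CPM. Footprints on Eif2ak4 numbered 546, 156, 47 and 70 in the same order, or 60.2, 65.2, 7.26 and 16.2 CPM. Both KO libraries of each assay were far below both WT libraries, with no overlap of the intervals, and reads remained in every KO library. The KO level was 15.9% of WT in RNA and 12.2% in footprints in replete medium, and without leucine it was 24.0% and 25.0%. Whether the remaining reads come from a truncated mRNA or from cells that kept the gene was not tested.

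Eif2ak1 (HRI) had 1791, 1609, 1353 and 1086 RNA reads in this order of libraries (WT with and without leucine, then KO with and without leucine), or 42.6, 39.5, 35.3 and 35.0 CPM. Its footprints numbered 577, 161, 300 and 306, or 63.6, 67.3, 46.4 and 70.9 CPM. RNA was a little lower in both KO libraries than in both WT libraries. In footprints the KO replete library was the low one (41.3 to 51.9 CPM), and the other 3 overlapped one another.

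Eif2ak2 (PKR) had 4339, 3140, 3797 and 2837 RNA reads in the same order, or 103, 77.1, 99.1 and 91.5 CPM. Its footprints numbered 566, 163, 404 and 198, or 62.4, 68.1, 62.4 and 45.9 CPM. The low library differed between assays: WT leucine-free in RNA (74.4 to 79.8 CPM) and KO leucine-free in footprints (39.7 to 52.8 CPM). The other 3 footprint libraries overlapped one another.

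Eif2ak3 (PERK) had 1089, 1026, 1040 and 961 RNA reads, or 25.9, 25.2, 27.1 and 31.0 CPM. It had the fewest footprints of the kinases in both WT libraries: 131, 28, 66 and 82 reads, or 14.4, 11.7, 10.2 and 19.0 CPM. KO leucine-free cells held the highest level in both assays. In RNA that interval (29.1 to 33.0 CPM) lay above the other 3, while in footprints (15.1 to 23.6 CPM) it overlapped both WT intervals and lay above KO replete alone (7.89 to 13.0 CPM).

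Ppp1r15a (GADD34) had 521, 902, 307 and 400 RNA reads in that order, or 12.4, 22.1, 8.01 and 12.9 CPM. Leucine-free cells were higher than replete cells of the same genotype, and KO cells lower than WT cells in the same medium. KO leucine-free and WT replete cells overlapped. Its footprint counts were 85, 85, 42 and 42, equal across media within a genotype, so the footprint response to leucine rests on the unequal sizes of the libraries. After scaling they were 9.37 (7.49 to 11.6), 35.5 (28.4 to 43.9), 6.49 (4.68 to 8.77) and 9.74 CPM (7.02 to 13.2). WT leucine-free cells stood above the other 3 libraries, and the 2 KO libraries overlapped.

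Ppp1r15b (CReP) had 38586, 37265, 35071 and 30766 RNA reads, or 918, 915, 915 and 992 CPM, the flattest RNA profile of the 6 genes. Its footprints numbered 1091, 316, 717 and 239, or 120.3, 132, 110.8 and 55.4 CPM. A single footprint library stood apart, KO leucine-free (48.6 to 62.9 CPM), at about the same RNA level as the others.

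**Figure D1:**
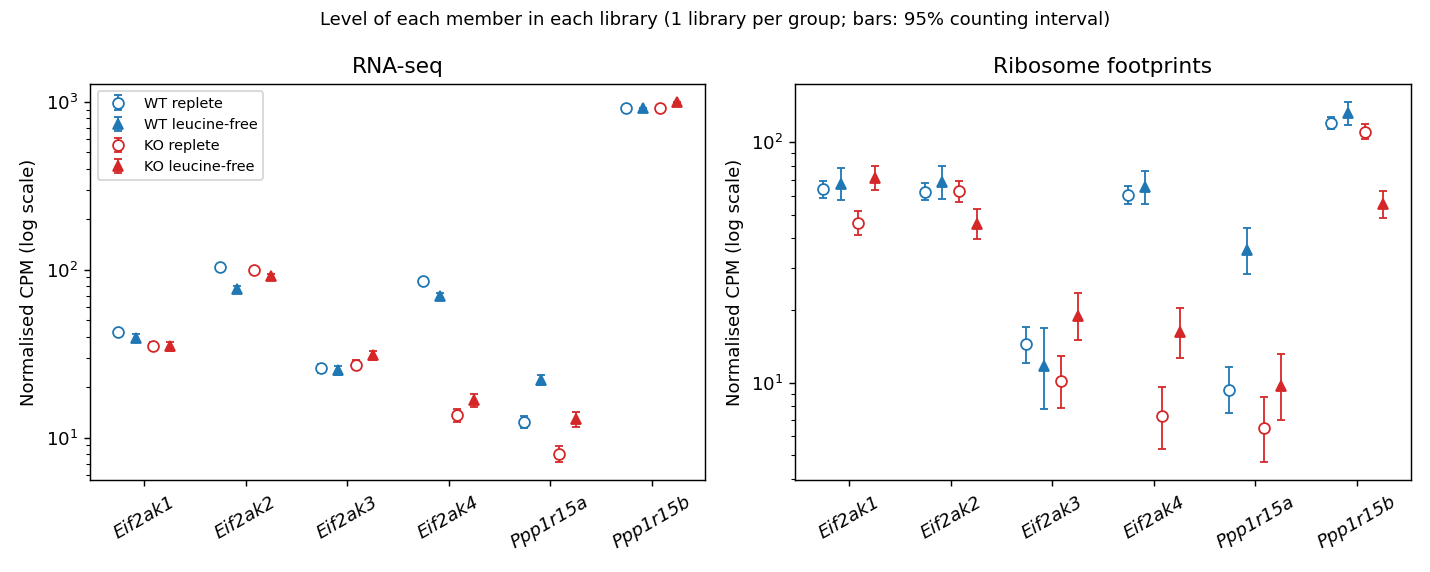
CPM of the 6 genes (log axis) in the 4 RNA-seq (left) and 4 footprint (right) libraries, WT in blue and KO in red, replete as open circles and leucine-free as triangles, 1 point per library with its 95% Poisson interval for counting error. Eif2ak4 sits low in both KO libraries of each assay, Ppp1r15a footprints are highest in WT leucine-free cells (35.5 CPM), and Ppp1r15b footprints are lowest in KO leucine-free cells (55.4 CPM).

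Levels between genes were compared as CPM per kb of merged exonic length. In WT replete RNA, Ppp1r15b was at 164.2 CPM per kb, above 99.2% of the 10814 measured genes. Eif2ak2 followed at 20.2, Eif2ak4 at 11.49 and Eif2ak1 at 7.52, close to the median gene at 7.45. Eif2ak3 at 4.30 and Ppp1r15a at 4.22 CPM per kb could not be ordered, since their intervals overlap. CReP mRNA was thus the most abundant of the 6 in these cells, and PERK and GADD34 mRNA the least abundant in WT replete cells.

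Per kb of exonic length, which includes untranslated sequence, the footprint order was tighter. In WT replete cells Ppp1r15b had 21.5 footprint CPM per kb, Eif2ak2 12.2, Eif2ak1 11.2, Eif2ak4 8.07, Ppp1r15a 3.19 and Eif2ak3 2.40, against a median gene at 9.39. The pairs Eif2ak2 and Eif2ak1, and Ppp1r15a and Eif2ak3, overlapped. Without leucine Ppp1r15a moved up to 12.1 CPM per kb in WT cells, overlapping Eif2ak2 at 13.3 and Eif2ak1 at 11.9, while in KO cells it stood at 3.32. Coding length was not used, so this order and these overlaps hold per exonic kb and may differ per coding kb.

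Of the summed RNA level of the 4 kinases per kb in WT replete cells, Eif2ak2 held 46.4%, Eif2ak4 26.4%, Eif2ak1 17.3% and Eif2ak3 9.89%. In KO replete cells Eif2ak4 held 5.72% and Eif2ak2 60.7%. The footprint shares gave more weight to Eif2ak1, which held 33.1% in WT replete and 46.7% in KO leucine-free cells, where it was the leading kinase. Eif2ak2 had the largest share in each of the other 3 footprint libraries, at 36.0%, 37.1% and 53.0%. In both WT libraries its level per kb overlapped that of Eif2ak1, so these 2 could not be ordered there. Eif2ak2 and Eif2ak1 had 566 and 577 footprints in WT replete cells, and 163 and 161 in WT leucine-free cells. A larger share of another kinase after the loss of Eif2ak4 is partly arithmetic, since the shares sum to the same whole. Footprint shares also use exonic rather than coding length, so they depend on how much of each gene's exonic length is untranslated.

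Translation efficiency (TE), the scaled footprint count over the scaled RNA count of a gene, set the 2 phosphatase subunits apart. Ppp1r15b had a TE of 0.131 (0.123 to 0.139) in replete and 0.145 in leucine-free WT cells, and of 0.121 and 0.0560 (0.0493 to 0.0636) in the KO cells. The median gene was at 1.01 to 1.03, so CReP mRNA carried few footprints for its RNA count. Only 2.03% of the 9097 genes measured in both assays were below Ppp1r15b in WT replete cells, and 0.143% in KO leucine-free cells. Both counts span the whole exonic length, so such ranks between genes also depend on how much of each gene is untranslated. That part was not tested. Ppp1r15a had a TE of 0.760 in replete and 1.61 (1.29 to 2.01) in leucine-free WT cells, and of 0.818 and 0.763 in the KO cells. WT leucine-free cells were again the high library, and the other 3 overlapped.

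Eif2ak1 was the one kinase above the median TE in all 4 conditions, at 1.49, 1.71, 1.31 and 2.03 in the usual order. Eif2ak2 had a TE of 0.605, 0.886, 0.631 and 0.503, and Eif2ak3 of 0.559, 0.473, 0.378 and 0.617. For Eif2ak4 the values were 0.703, 0.939, 0.538 and 0.976, so its remaining KO mRNA carried footprints at a rate whose interval overlapped that of WT in each medium. Counts include reads outside the coding sequence, so the place of Eif2ak1 and the other kinases against the median also depends on untranslated length. TE here does not separate footprints on upstream open reading frames from those on the main frame.

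**Figure D2:**
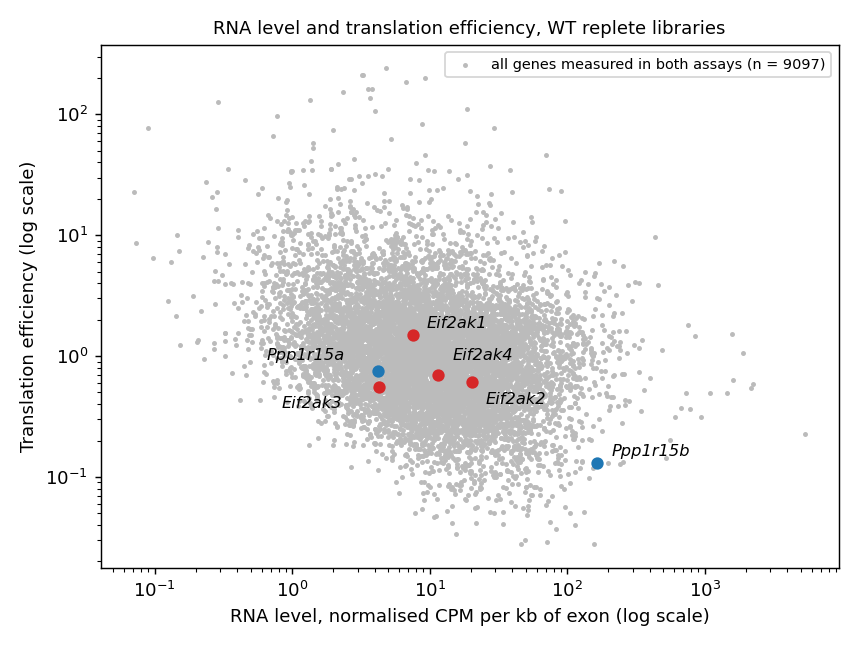
Translation efficiency (log axis) against RNA level in CPM per kb (log axis) in the WT replete libraries, with the 9097 genes measured in both assays in grey, the 4 kinase genes in red and the 2 phosphatase subunit genes in blue. Ppp1r15b lies at the lower right, at 164.2 CPM per kb and a TE of 0.131, away from the other 5 genes. TE uses counts over the whole exonic length, so heights of different genes also depend on their untranslated length.

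The first comparison asks what leucine removal did in WT cells. To pass, a gene needed a 2-fold difference in either direction (a log2 ratio of 1 or more in size) and an interval that left out 0. In RNA none of the 6 genes passed, against 1.71% of all measured genes. Ppp1r15a came nearest at a log2 ratio of 0.84 (0.68 to 0.99), above 98.6% of genes. Eif2ak2 was at -0.42 (-0.49 to -0.36) and Eif2ak4 at -0.30 (-0.37 to -0.23), while Eif2ak1, Eif2ak3 and Ppp1r15b were at -0.11, -0.04 and -0.01.

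In WT footprints 1 of the 6 genes passed, against 1.46% of all: Ppp1r15a was higher without leucine at 1.92 (1.47 to 2.37), a fold of 3.79, above 99.9% of genes. Ppp1r15b was at 0.14, Eif2ak2 at 0.13, Eif2ak4 at 0.12, Eif2ak1 at 0.08 and Eif2ak3 at -0.28, and each of these intervals included 0. In TE Ppp1r15a also passed at 1.09 (0.63 to 1.55), the single member to do so, against 2.94% of all genes. Eif2ak2 at 0.55 (0.29 to 0.81) and Eif2ak4 at 0.42 (0.15 to 0.68) were the next, while Eif2ak1 at 0.19, Ppp1r15b at 0.14 and Eif2ak3 at -0.24 had intervals that included 0. GADD34 was thus the one gene of the 6 past 2-fold in WT cells, in footprints and in TE but not in RNA.

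In KO cells other members stood out in footprints and TE. In RNA none of the 6 passed, against 3.17% of all genes. Ppp1r15a was again the highest at 0.69 (0.47 to 0.91), followed by Eif2ak4 at 0.30 and Eif2ak3 at 0.19, while Ppp1r15b, Eif2ak1 and Eif2ak2 were at 0.12, -0.01 and -0.12.

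In KO footprints 1 of the 6 passed, against 2.09% of all genes. It was Eif2ak4 at 1.15 (0.61 to 1.73), from 47 and 70 reads. Ppp1r15b, at -0.9975 (-1.22 to -0.79), fell just short of the 2-fold limit. It passed as lower at -1.01 when a trend with gene length was removed and at -1.02 with scaling factors over all protein-coding genes, the latter chosen after seeing the data. Eif2ak3 was at 0.90 (0.41 to 1.39), Eif2ak1 at 0.61 (0.38 to 0.85), Ppp1r15a at 0.59 (-0.07 to 1.24) and Eif2ak2 at -0.44 (-0.70 to -0.19). In TE Ppp1r15b passed as lower at -1.11 (-1.33 to -0.90), the single member to do so, against 2.99% of all genes. The kinases Eif2ak4, Eif2ak3 and Eif2ak1 had TE ratios of 0.86, 0.71 and 0.63, with intervals above 0, Eif2ak2 had -0.33 and Ppp1r15a -0.10 (-0.75 to 0.55).

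**Figure D3:**
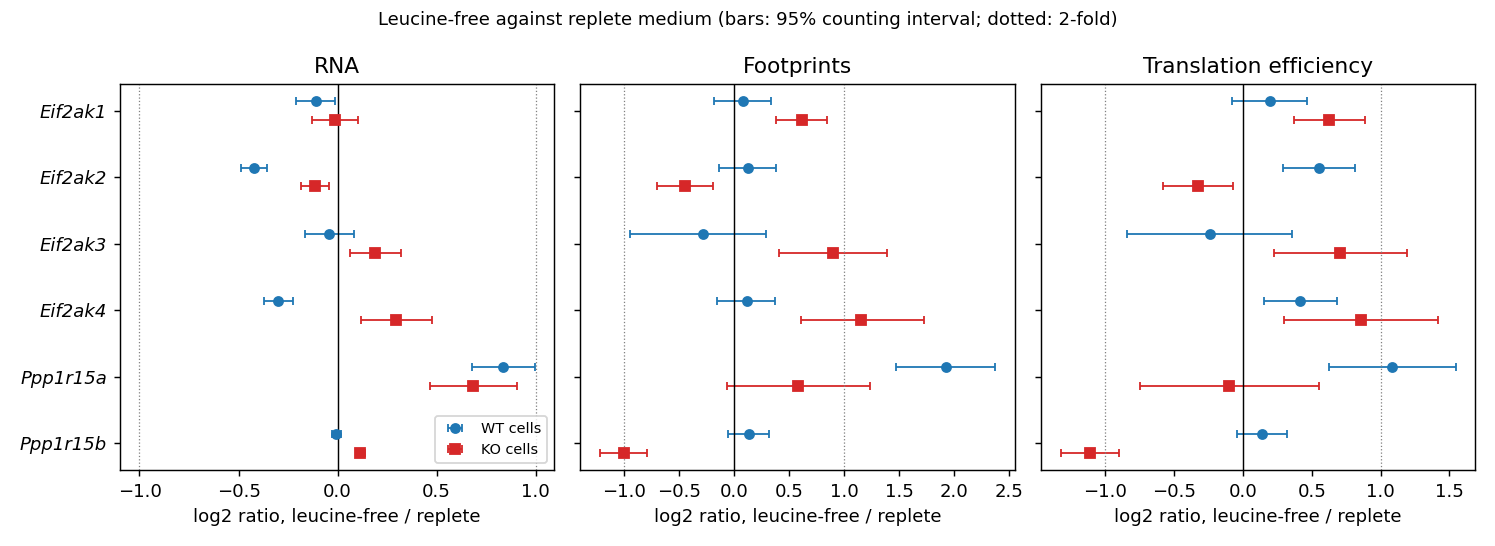
Log2 ratio of leucine-free over replete cells for the 6 genes in RNA, footprints and TE, WT and KO cells side by side, with 95% counting intervals and lines at the 2-fold limits. Ppp1r15a in WT footprints (1.92) is the highest point, and Ppp1r15b in KO TE (-1.11) the lowest.

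The comparison of KO with WT cells asks what differed with genotype. In replete RNA 1 of the 6 genes passed, against 6.86% of all: the target Eif2ak4 was lower at -2.65 (-2.79 to -2.52). Ppp1r15a was at -0.63 (-0.84 to -0.42), Eif2ak1 at -0.27, Eif2ak2 at -0.06, Eif2ak3 at 0.07 and Ppp1r15b at -0.0048. In replete footprints Eif2ak4 was again the 1 member to pass, at -3.04 (-3.51 to -2.62), against 3.03% of all genes. Eif2ak1, Eif2ak3 and Ppp1r15a were at -0.46, -0.50 and -0.52, the last with an interval that reached 0.02, Ppp1r15b at -0.12 and Eif2ak2 at 0.00. No member passed in replete TE, against 1.39% of all genes. Eif2ak3 was the lowest there at -0.56 (-1.01 to -0.12). Eif2ak4 at -0.39, Eif2ak1 at -0.18, Ppp1r15b at -0.11, Eif2ak2 at 0.06 and Ppp1r15a at 0.11 had intervals that included 0.

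In leucine-free medium more of the 6 passed between genotypes in footprints and TE, but not in RNA. The shares of all genes that passed were also larger than in replete medium. They were 7.23% against 3.03% in footprints and 5.95% against 1.39% in TE. In RNA 1 of the 6 passed, Eif2ak4 at -2.06 (-2.20 to -1.92), against 8.39% of all genes. Ppp1r15a was at -0.78 (-0.95 to -0.61), Eif2ak3, Eif2ak2 and Ppp1r15b were at 0.30, 0.25 and 0.12, and Eif2ak1 was at -0.17. In footprints 3 of the 6 passed, all lower in KO cells, against 7.23% of all genes. They were Eif2ak4 at -2.001 (-2.43 to -1.59), Ppp1r15a at -1.86 (-2.44 to -1.32) and Ppp1r15b at -1.25 (-1.501 to -1.01). The other kinases were at 0.68 (0.07 to 1.37) for Eif2ak3, 0.07 for Eif2ak1 and -0.57 (-0.88 to -0.26) for Eif2ak2. Both phosphatase subunits thus carried fewer footprints in KO than in WT cells without leucine, GADD34 at 27.6% and CReP at 42.0% of the WT level.

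In leucine-free TE the same 2 subunits passed, against 5.95% of all genes: Ppp1r15b at -1.37 (-1.61 to -1.13) and Ppp1r15a at -1.08 (-1.64 to -0.52). Without TMM scaling Ppp1r15a was at -0.9966 and did not pass. Eif2ak2 was at -0.82 (-1.12 to -0.51), and Eif2ak3, Eif2ak1 and Eif2ak4 were at 0.38, 0.25 and 0.06. These genotype ratios came from cells in which the summed duct and epithelial markers also differed, 234 in WT against 473 RNA CPM in KO cells with leucine, and 322 against 1089 without it. Their part in the ratios was not tested.

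**Figure D4:**
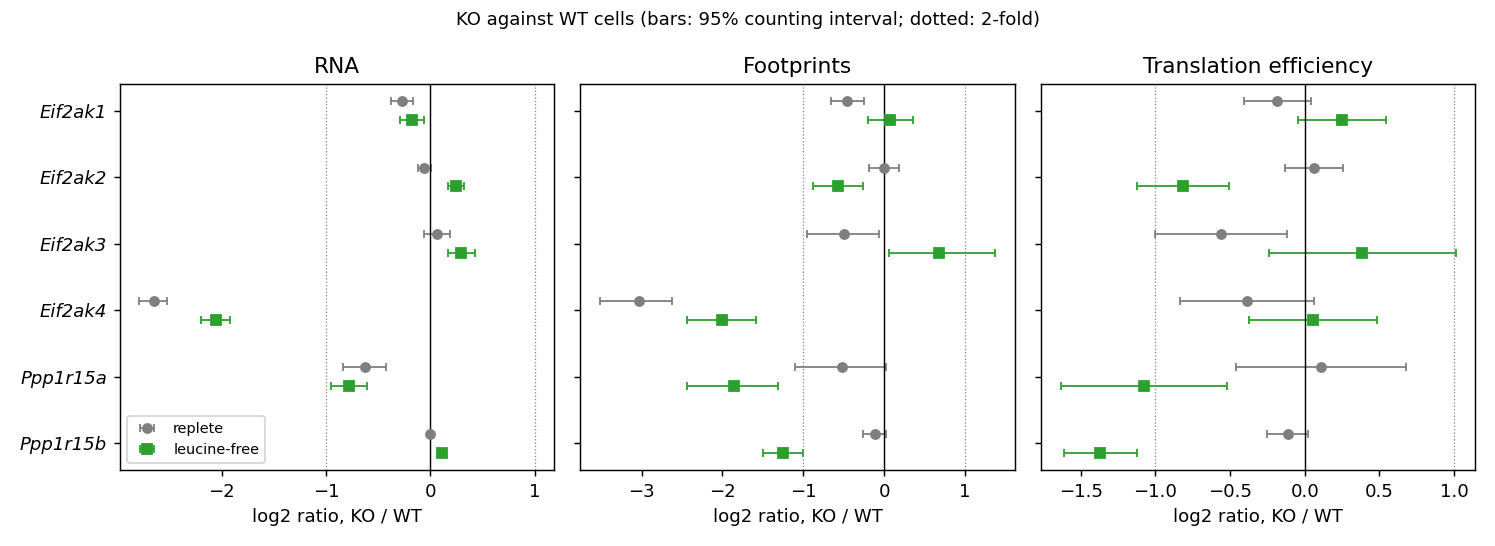
Log2 ratio of KO over WT cells for the 6 genes in RNA, footprints and TE, replete and leucine-free medium side by side, with 95% counting intervals and lines at the 2-fold limits. Eif2ak4 lies far below 0 in RNA and footprints in both media, while Ppp1r15a and Ppp1r15b pass the lower limit in footprints in leucine-free medium alone.

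The difference of the leucine responses, WT minus KO, asks how far each response differed with genotype. In RNA no member passed, against 4.67% of all genes. Eif2ak4 was the lowest at -0.59 (-0.78 to -0.41). Ppp1r15a was at 0.15 (-0.11 to 0.42), so by the scaled values its RNA response was not distinguishable between genotypes at this depth. Eif2ak2, Eif2ak3, Ppp1r15b and Eif2ak1 were at -0.31, -0.23, -0.12 and -0.10. In footprints 4 of the 6 passed, against 4.60% of all genes. Ppp1r15a at 1.34 (0.59 to 2.09) and Ppp1r15b at 1.13 (0.86 to 1.41) were higher in the WT response, and Eif2ak3 at -1.18 (-1.93 to -0.43) and Eif2ak4 at -1.04 (-1.63 to -0.45) were lower.

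The 2 kinases rest on few footprints. With a prior count of 5 in place of 0.5, Eif2ak3 was at -0.9996 and Eif2ak4 at -0.9667, and neither passed. Eif2ak2 was at 0.57 and Eif2ak1 at -0.53, with intervals that excluded 0. In TE 2 members passed as higher, against 7.82% of all genes: Ppp1r15b at 1.25 (0.98 to 1.53) and Ppp1r15a at 1.19 (0.39 to 1.98). Eif2ak3 was at -0.95 (-1.72 to -0.18), and passed as lower at -1.01 without TMM scaling and at -1.02 with scaling factors over all protein-coding genes. Eif2ak2 was at 0.88, Eif2ak1 at -0.43 and Eif2ak4 at -0.44 (-1.06 to 0.18). The 2 subunits reached similar values by different routes: Ppp1r15a had more footprints in WT cells without leucine, and Ppp1r15b fewer in KO cells without leucine.

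Ratios of counts within a library do not depend on scaling. Ppp1r15a reads per Ppp1r15b read stood at 0.0135 (replete) and 0.0242 (leucine-free) in WT RNA and at 0.00875 and 0.0130 in KO RNA. In footprints the ratio was 0.0779 (0.0617 to 0.0972), 0.269 (0.209 to 0.343), 0.0586 (0.0419 to 0.0800) and 0.176 (0.124 to 0.245). The balance of footprints therefore moved toward GADD34 without leucine in both genotypes, by a log2 change of 1.79 (1.32 to 2.26) in WT and 1.58 (0.93 to 2.24) in KO cells. The WT minus KO difference of these footprint changes was 0.20 (-0.60 to 1.01). In RNA the ratio changed by 0.84 (0.69 to 0.999) in WT and by 0.57 (0.355 to 0.79) in KO cells. The WT minus KO difference in RNA was 0.27 (0.0047 to 0.54), an interval that narrowly excluded 0. By the scaled footprint values, Ppp1r15b was level in WT cells while Ppp1r15a was higher. In KO cells Ppp1r15b footprints were lower while the interval of Ppp1r15a included 0.

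Eif2ak4 reads per read of the 3 other kinases together were 0.499 and 0.491 in WT replete and leucine-free RNA, and 0.0843 and 0.106 in KO cells. The footprint values were 0.429, 0.443, 0.0610 and 0.120. Leucine removal left the ratio level in WT cells, with an RNA log2 change of -0.02 (-0.11 to 0.07) and a footprint one of 0.05 (-0.26 to 0.36). In KO cells it was higher by 0.33 (0.15 to 0.52) and 0.97 (0.41 to 1.52). Over Eif2ak3 alone, the KO changes were 0.11 (-0.11 to 0.32) in RNA and 0.26 (-0.45 to 0.97) in footprints, and both intervals included 0. The WT changes of that ratio were -0.26 (-0.40 to -0.12) in RNA and 0.42 (-0.22 to 1.06) in footprints. The changes with leucine thus depended on which kinases formed the denominator.

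**Figure D5:**
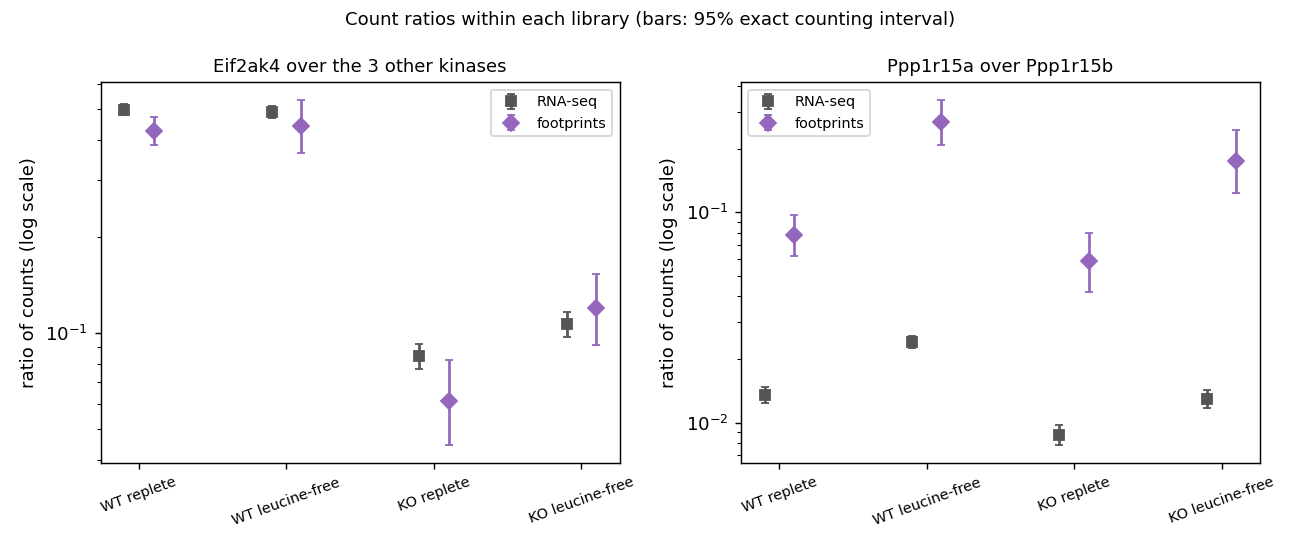
Ratio of Eif2ak4 counts to the summed counts of Eif2ak1, Eif2ak2 and Eif2ak3 (left, log axis) and of Ppp1r15a to Ppp1r15b counts (right, log axis), 1 point per library with its 95% counting interval, RNA-seq as squares and footprints as diamonds. The kinase ratio is lower in all 4 KO libraries, and the phosphatase ratio is higher without leucine in both genotypes and assays.

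The partners of the 6 proteins were followed in a list of 22 genes, all measured: subunits of eIF2 and of its exchange factor eIF2B, the catalytic subunits of protein phosphatase 1, and regulators of each kinase. In WT cells without leucine none of the 22 passed in RNA, footprints or TE, against 1.71%, 1.46% and 2.94% of all genes. The list medians were 0.05, -0.03 and -0.10 against 0.00, 0.01 and -0.01 over all genes. RNA ratios ran from -0.45 for Tarbp2, which inhibits PKR, to 0.54 for Prkra, an activator of PKR. Footprint ratios ran from -0.32 for Ppp1cb to 0.53 for Ppp1cc, both catalytic subunits of the phosphatase, and the same 2 genes bounded TE at -0.46 and 0.98. Ppp1cc had 21 to 56 footprints per library and Tarbp2 13 to 59, so their footprint and TE ratios, here and below, rest on few reads.

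In KO cells without leucine 1 of the 22 passed in RNA, against 3.17% of all genes. It was Ppp1cc, higher at 1.20 (0.84 to 1.57), and Prkra was the lowest at -0.26. None passed in footprints, against 2.09%, with Eif2s3x, a subunit of eIF2, the highest at 0.57 and Oma1, the mitochondrial protease that starts signalling to HRI, the lowest at -0.86. In TE 1 passed, against 2.99%: Ppp1cc was lower at -1.46, and Eif2s3x was the highest at 0.68.

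Between genotypes in replete medium, 1 of the 22 passed in RNA, against 6.86% of all genes. Ppp1cc was lower in KO cells at -1.07 (-1.43 to -0.73), and Prkra was the highest at 0.41. Footprints had none passing, against 3.03%, from -0.70 for Eif2b1, a subunit of eIF2B, to 0.69 for Oma1. TE had 2 passing as higher, Tarbp2 at 1.18 and Ppp1cc at 1.08, against 1.39%, with Eif2s3x the lowest at -0.45.

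Without leucine none passed in RNA between genotypes, against 8.39% of all genes, with Tarbp2 at 0.58 and Eif2b1 at -0.70 as the ends of the list. In footprints 1 passed, against 7.23%: Tarbp2 was higher at 1.05 (0.19 to 2.10), and Eif2b1 was the lowest at -0.85. In TE 1 passed, against 5.95%: Ppp1cc was lower at -1.36, and Ppp1ca, another catalytic subunit, was the highest at 0.73.

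For the WT minus KO difference, Ppp1cc at -1.65 and Tarbp2 at -1.12 passed in RNA, 2 of 22 against 4.67% of all genes, and Prkra was the highest at 0.80. Oma1 at 1.07 passed in footprints, 1 of 22 against 4.60%, and Eif2s3x was the lowest at -0.60. Ppp1cc at 2.44 passed in TE, 1 of 22 against 7.82%, and Eif2s3x was the lowest at -0.96.

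The readouts of the pathway, 8 genes for ATF4 and its downstream factors and effectors, set the scale for the members. In WT footprints 5 of 8 passed as higher without leucine, against 1.46% of all genes: Ddit3 at 3.66, Chac1 at 2.90, Atf3 at 1.97, Atf4 at 1.61 and Trib3 at 1.23. The list median was 1.42, and Asns, the asparagine synthetase gene, was the lowest at -0.14. Ppp1r15a at 1.92 falls within the range of the 5. In KO footprints 2 of 8 passed, against 2.09%: Ddit3 at 3.64 (2.32 to 5.74) and Atf3 at 2.74 (2.41 to 3.10). Ddit3 rests on 4 KO replete and 37 KO leucine-free reads. The list median in KO footprints was 0.35, Asns was the lowest at -0.36, and Atf4, which encodes the factor that drives many of the others, was at 0.09 (-0.04 to 0.21).

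In RNA 4 of 8 readouts passed as higher in WT cells without leucine, against 1.71% of all genes: Chac1 at 2.43, Atf3 at 1.597, Trib3 at 1.39 and Ddit3 at 1.12. Atf5 was the lowest at -0.17. In KO RNA 1 of 8 passed, Atf3 at 3.93, against 3.17%, and Chac1 was the lowest at -0.27. In TE, Ddit3 at 2.53 and Atf5 at 1.15 passed as higher in WT cells, 2 of 8 against 2.94%, with Asns the lowest at -0.34. In KO TE Ddit3 passed as higher at 2.81 and Atf3 as lower at -1.18, 2 of 8 against 2.99%. Ppp1r15a, at 1.09 in WT and -0.10 in KO cells, lay near Atf5 in WT TE.

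Between genotypes in replete medium none of the 8 passed in RNA, against 6.86% of all genes, from -0.82 for Atf5 to 0.84 for Atf4. In replete footprints 2 of 8 were lower in KO cells, Ddit3 at -1.77 (-3.91 to -0.34) and Atf5 at -1.24 (-1.86 to -0.70), against 3.03%, and Atf3 was the highest at 0.92. In replete TE 1 of 8 passed, Ddit3 as lower at -1.79, against 1.39%, and Atf3 was the highest at 0.84. Ddit3 had 21 footprints in WT replete and 4 in KO replete cells, so its ratios with the KO replete library rest on few reads.

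Without leucine, 5 of 8 readouts were lower and 1 higher in KO footprints, against 7.23% of all genes. The lower ones were Chac1 at -3.08, Ddit3 at -1.78, Atf5 at -1.72, Trib3 at -1.63 and Atf4 at -1.31, and the higher one was Atf3 at 1.70. Ppp1r15a at -1.86 lay among the lower ones. In RNA 3 of 8 passed, against 8.39%: Chac1 at -2.74 and Trib3 at -1.87 as lower, and Atf3 at 2.41 as higher. In TE 2 of 8 passed as lower, Ddit3 at -1.51 and Atf4 at -1.43, against 5.95%, with Trib3 the highest at 0.23.

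In the WT minus KO difference of footprints Chac1 at 2.62, Atf4 at 1.53 and Trib3 at 1.28 passed as higher, 3 of 8 against 4.60% of all genes. Atf3 was the lowest at -0.78, and Ddit3 was at 0.01 (-1.56 to 1.58). Ppp1r15a at 1.34 and Ppp1r15b at 1.13 had values near that of Trib3, but the components of Ppp1r15b were unlike those of Trib3. Trib3 footprints stood at 7.17 CPM (replete) and 16.7 (leucine-free) in WT cells and at 5.56 and 5.33 in KO cells. Ppp1r15b had a leucine response of 0.14 in WT, with an interval that included 0, and of -0.9975 in KO cells. In RNA Chac1 at 2.70 and Trib3 at 1.59 passed as higher and Atf3 at -2.33 as lower, 3 of 8 against 4.67%. In TE Atf3 at 1.55 passed, 1 of 8 against 7.82%, and Trib3 was the lowest at -0.31. All these comparisons use the same 8 libraries, so they share their samples.

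For the 3 members whose level spanned at least 2-fold over the libraries of an assay, the genes with the most similar profile were found over the 8 libraries among 7137 genes with a mean count of at least 100 in both assays. The measure was the distance between log2 CPM profiles centred within each assay. Nearest to Eif2ak4 were Sprr1b at 1.01, Pcdh17 at 1.10 and Neto2 at 1.18, against a median gene at 3.56. Like Eif2ak4 they were low in both KO media, Neto2 for one with 281 and 256 RNA CPM in WT and 63.2 and 68.5 in KO cells.

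Nearest to Ppp1r15a were Txnip at 0.769, Ifrd1 at 0.805 and Rpl39 at 0.993, against a median of 2.15. Footprints on Ifrd1 stood at 108 CPM (replete) and 321 (leucine-free) in WT cells and at 46.8 and 66.5 in KO cells. Nearest to Ppp1r15b were Gpc4 at 0.221, Atp6v1e1 at 0.286 and Nars2 at 0.3005, against a median of 1.08. Gpc4 footprints stood at 124, 119, 108 and 51.0 CPM in that order, with the same single low library, KO leucine-free. These profiles share their libraries and depth, and likeness is a description.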

How the data were processed

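The deposited files hold raw read counts for each gene. According to the file headers, the authors obtained these counts with featureCounts 1.6.4 and exons from Ensembl release 96, without a strand option. Per the submitters' processing notes, cutadapt, STAR, Subread and GRCm38 were used. Symbols were joined for 55450 of the 55536 genes (99.85%), and gene class came from RefSeq's GRCm38.p6.

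Counts were scaled within each assay by TMM factors from edgeR 4.0.16 (R 4.3.3) over measured genes: 10814 in RNA, 9169 in footprints and 9097 in both. Log2 ratios used a prior count of 0.5. Intervals (95%) were exact conditional binomial for library pairs, Wald for TE and for WT minus KO, and exact Poisson for CPM. With 1 library per group no test could be made. The functions were tested on simulated Poisson counts, in RNA and footprints, for the WT leucine response and the WT minus KO difference. The simulation had no spread between cultures, and TE and the other comparisons were not simulated. Python 3.11.15, scipy 1.17.1 and matplotlib 3.10.9 were used.

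The 6 genes and the gene lists were chosen with earlier results of these data known. All 6 are named in every comparison. A listed gene is named where it passed or was the highest or lowest of its list, and 3 nearest genes per member by profile distance. Alternatives were library totals, DESeq2 1.42.0 size factors, a minimum mean count of 1, a prior count of 5, a length trend removed, and TMM over all genes. For the kinase ratio, Eif2ak3 alone was the alternative denominator. A footprint level per coding length was planned, but exonic length was used for both assays because no protein lengths were used here.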

Additional observations from a re-analysis of the deposited data

Results flagged for a closer look

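For 10 values the WT and KO point estimates of the response to leucine removal had opposite signs. In 8 of them the counting interval of one genotype included 0, and Eif2ak4 in RNA and Eif2ak2 in TE were the 2 in which both intervals excluded it. With 1 library per group these differences were not tested. The WT minus KO log2 differences in RNA were -0.23 for Eif2ak3, -0.59 for Eif2ak4 and -0.12 for Ppp1r15b. In footprints they were 0.57 for Eif2ak2, -1.18 for Eif2ak3 and 1.13 for Ppp1r15b. In TE they were 0.88 for Eif2ak2, -0.95 for Eif2ak3, 1.19 for Ppp1r15a and 1.25 for Ppp1r15b. TE is the footprint value less the RNA value, so it is not separate from them. Eif2ak3 rests on 28 to 131 footprints per library.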

How the results depend on the processing

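No paired analysis was possible because each group is 1 library. No member changed direction past the 2-fold limit under any alternative. With a minimum mean count of 1, the genes past the limit numbered 894, 1356, 1807, 1853 and 1155 in RNA (185, 343, 742, 907 and 505 in the report's setting) for leucine in WT, leucine in KO, genotype in replete, genotype in leucine-free medium, and the WT minus KO difference. In footprints the first 3 numbered 265, 339 and 721 (134, 192 and 278), and in TE the first 4 numbered 642, 718, 523 and 892 (267, 272, 126 and 541). More genes are tested at that minimum. The members past the limit in KO footprints were 2 in place of 1 with the length trend removed and with TMM over all protein-coding genes. In the WT minus KO difference of footprints they were 2 in place of 4 with a prior count of 5. In leucine-free TE between genotypes they were 1 in place of 2 with library totals. Footprint depth limits Eif2ak3 (28 reads in WT leucine-free cells) and Ppp1r15a (42 in each KO library), and without replicates no difference is checked against the spread between cultures.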
